A study of Mus musculus with 2 samples.

Results

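The HIN200 genes, also called the PYHIN or Ifi200 family, form a cluster of interferon-inducible genes on mouse chromosome 1. The 7 members described here were Ifi203, Mndal, Ifi204, Ifi207, Ifi209, Ifi211 and Aim2, out of 32285 genes in the files. They were chosen from readouts of the same 2 libraries, because earlier results had shown them lower in one library, so their levels are given as a description and no level below counts as a test of that choice. LSK cells, the Lin-Sca-1+c-Kit+ fraction of bone marrow (BM) that holds stem cells and early progenitors, had been profiled by droplet single cell RNA sequencing in which each unique molecular identifier (UMI) stands for 1 captured transcript. Both libraries came from BCR-ABL transgenic mice 8 to 10 weeks old, a model of chronic myeloid leukemia (CML). In both, per the study's methods, BCR-ABL was driven by the SCL promoter, which is active in stem and progenitor cells, and was switched on by tetracycline withdrawal for 2 weeks before the sort. The miR-142 WT CML library carried normal Mir142 alleles and the miR-142 KO CML library came from mice lacking miR-142 in the germline, so the comparison is between these 2 genotypes under the same oncogene. The methods placed both on a B6 background. How many mice were pooled was not stated, and with 1 library per group there was no replicate error, no test and no p-value. Every interval below is a 95% interval for counting error only.

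Cells were barcodes with at least 8000 UMIs and under 10% mitochondrial UMIs. This left 5363 cells with 138183896 UMIs in miR-142 WT CML (median 19443 per cell) and 5458 cells with 158438757 UMIs in miR-142 KO CML (median 24182 per cell). The libraries shared 4 barcodes. The sort label held in both, with Kit at 86.4 and 68.3 CPM (UMIs of the gene per 1e6 UMIs), Ly6a, which encodes Sca-1, at 96.8 and 153 CPM, and Cd34 at 255 and 199 CPM in WT and KO. Mir142hg, the host transcript of miR-142, had 1260 UMIs in WT and 20 in KO. Median mitochondrial shares were 2.85% and 2.0%.

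HIN200 proteins bind DNA through a carboxy-terminal HIN domain, and most carry an amino-terminal pyrin domain through which they gather signalling partners. Aim2 is the cytosolic DNA sensor of the family. It assembles an inflammasome with the adaptor ASC, encoded by Pycard, and caspase-1. Ifi204 encodes p204, a largely nuclear protein that has been linked to DNA sensing and to myeloid differentiation. Mndal takes its name from myeloid nuclear differentiation antigen, a human relative. In blood-forming cells many of these genes are switched on by interferons, and the roles of Ifi203, Ifi207, Ifi209 and Ifi211 are less well defined. The number of family genes and their sequences are known to vary between inbred mouse strains.

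All 7 members lay within 1 cluster on chromosome 1 of GRCm38, the build that the submitters' notes name as mm10. From the Aim2 side the order was Aim2 at chr1:173350879-173466040 on the plus strand, Ifi209 at chr1:173630917-173647928 on the plus strand, and then 5 genes on the minus strand. These were Ifi207 at chr1:173723427-173741747, Ifi204 at chr1:173747293-173766943, Mndal at chr1:173849126-173942491, Ifi211 at chr1:173896345-173913046 and Ifi203 at chr1:173920407-173942672. The annotated span of Mndal contained the whole of Ifi211 (16702 bases) and 22085 bases of Ifi203 on the same strand. Their exons hardly overlapped, however: 37 exonic bases were shared by Mndal and Ifi203, and none by Mndal and Ifi211. Aim2 overlapped Cadm3 by 16817 bases on the opposite strand.

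Near-identical copies limit how the counts of some members can be read, since a read that matches several genes is usually left uncounted. Runs of 50 bases in the last 500 bases of each coding transcript were compared with all other annotated genes. For Ifi211, 77.4% of the runs were found in another gene (Ifi205 or Mndal), and for Ifi209 63.4% were found in Ifi214. The share was 18.7% for Mndal, 3.54% for Ifi207, 2.22% for Ifi204, 1.11% for Ifi203 and 0.822% for Aim2. The levels of Ifi211 and Ifi209 are therefore uncertain, while those of Ifi203 and Aim2 rest on largely unique sequence.

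The promoters are shown because the members moved in the same direction and are known as interferon-induced genes. The RefSeq promoter table (GRCm38.p6, 250 bases before to 50 after a start) held 8 windows for 6 of the members and none was used for Ifi204. The search, on both strands, was for GAAA, any pair of bases and GAAA, the letters of the interferon-stimulated response element (ISRE) that interferon regulatory factors bind. It was found in windows of 4 members, Ifi203, Mndal, Ifi207 and Ifi211, against 3.44% of all 32851 promoters in the table. That share is per window, whereas a member was counted if any of its windows held the letters. Ifi209 and Aim2 held none. Of the 6 other family genes with a window, 5 held it. A second search, for TTC, any 3 bases and GAA, matched 0 members and 1 of the other family genes, against 8.3% of promoters. The 120 bases from 100 before to 20 after the start are printed below for 1 window per gene, each 5′ to 3′ on the strand of its gene. Capitals mark the 10 bases closest to GAAATCGAAA where they had at most 1 mismatch.
Ifi203, chr1:173942473-173942592: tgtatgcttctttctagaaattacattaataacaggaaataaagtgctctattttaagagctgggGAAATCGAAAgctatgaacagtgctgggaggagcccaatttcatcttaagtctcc
Mndal, chr1:173880168-173880287: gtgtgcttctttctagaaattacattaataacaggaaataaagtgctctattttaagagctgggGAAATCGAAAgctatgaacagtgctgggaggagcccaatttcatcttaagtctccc
Ifi207, chr1:173741790-173741909: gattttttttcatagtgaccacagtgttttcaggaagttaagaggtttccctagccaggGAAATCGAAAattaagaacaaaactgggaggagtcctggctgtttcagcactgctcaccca
Ifi211, chr1:173913027-173913146: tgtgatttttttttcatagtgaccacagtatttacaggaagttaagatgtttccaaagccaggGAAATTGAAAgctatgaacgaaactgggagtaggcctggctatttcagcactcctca
Ifi209, chr1:173630759-173630878: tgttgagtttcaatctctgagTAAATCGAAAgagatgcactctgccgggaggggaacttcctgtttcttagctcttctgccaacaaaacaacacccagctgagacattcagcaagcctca
Ifi214, chr1:173535938-173536057: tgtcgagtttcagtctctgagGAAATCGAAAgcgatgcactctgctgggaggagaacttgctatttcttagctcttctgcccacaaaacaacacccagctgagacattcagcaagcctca
Aim2, chr1:173420504-173420623: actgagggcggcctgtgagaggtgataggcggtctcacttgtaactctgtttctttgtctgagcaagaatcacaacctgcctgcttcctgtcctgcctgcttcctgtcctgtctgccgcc

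The Ifi203 and Mndal windows were 90.7% identical over the aligned 300-base windows, with the element beginning at -35 and -36 from the start. Ifi207 and Ifi211 made a second close pair, at 85.9%, with the element at -41 and -37. Every other pair was at 55.0% or lower. Counting positions from 1 at the 5′ end of the 10 bases, Ifi211 carried the substitution C6T against GAAATCGAAA, which leaves the searched letters intact. Ifi209 carried G1T, which removes them. Ifi214, a family gene outside the 7, is printed because its window carries the unchanged element at -79, the same place as the altered one in Ifi209. In Aim2 the closest 10 bases of the window had 4 mismatches. A match in letters is no evidence that a factor binds there, and no match says nothing of sites outside the window.

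Since miR-142 was the deleted gene, its mature sequences were set against the annotated 3′ ends of the members, the place where a microRNA usually pairs through its seed, bases 2 to 8, in capitals here.
mmu-miR-142a-3p: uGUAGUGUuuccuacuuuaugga
mmu-miR-142a-5p: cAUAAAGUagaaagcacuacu
mmu-miR-142b: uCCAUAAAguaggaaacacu
The complement of the first seed, ACACTAC, was absent from the longest 3′ untranslated region of all 7 members, against 6.05% of 20870 genes that hold it. The complement of the second, ACTTTAT, was likewise absent from all 7, against 14.4% of genes. That of the third, TTTATGG, from the opposite strand of the same locus, was found once in Ifi209 and in no other member, against 11.5% of genes. The regions of Mndal (165 bases), Ifi211 (254), Ifi207 (305) and Ifi204 (307) were short, against 2129 bases in Ifi203. The shares of genes were not matched for length, so absence from a short region says little. Mir142 lies on chromosome 11, where these mature sequences map to chr11:87756903-87756925, chr11:87756867-87756887 and chr11:87756906-87756925, and so not near the HIN200 cluster.

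Every member was lower in miR-142 KO CML, but by very different amounts. Ifi203 had 16293 UMIs in WT and 6519 in KO, or 118 CPM (116 to 120) against 41.1 CPM (40.2 to 42.2), which gave a log2 ratio of KO over WT of -1.52 (-1.56 to -1.48). Mndal had 13284 and 5861 UMIs, or 96.1 and 37.0 CPM, with a log2 ratio of -1.38 (-1.42 to -1.33). Both were thus more than 2-fold lower in KO over the whole library. Together they gave most of the UMIs of the 7 genes, Ifi203 with 47.5% and Mndal with 38.7% in WT, and 41.5% and 37.3% in KO.

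Aim2, the inflammasome sensor, had 3406 UMIs in WT and 3011 in KO. Its level was 24.6 CPM (23.8 to 25.5) against 19.0 CPM (18.3 to 19.7), a log2 ratio of -0.38 (-0.45 to -0.30), so it was lower in KO beyond counting error but far short of 2-fold. Its share of the members' UMIs was 9.93% in WT and 19.2% in KO.

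The other 4 members were scarce. Ifi209 had 987 UMIs in WT and 260 in KO (7.14 and 1.64 CPM, log2 ratio -2.12, -2.32 to -1.92). Ifi211 had 170 and 32 UMIs (1.23 and 0.202 CPM, log2 ratio -2.61, -3.20 to -2.06). Ifi204, the p204 gene, had 130 and 16 UMIs (0.941 and 0.101 CPM), with a log2 ratio of -3.22 whose interval ran from -4.07 to -2.47. Ifi207 had 36 and 8 UMIs, and its interval was wider still, from -3.68 to -1.24 around -2.37. The rarer a member was, the wider its interval. Only the intervals of Ifi204 and Ifi209 did not overlap, so the other pairs among the 4 cannot be ranked securely.

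With 0.1 CPM added to each level, 3 of the 7 members reached a mean of 10 CPM over the libraries, and 2 of these (Ifi203 and Mndal) were at least 2-fold lower in KO, against 1.16% of the 7483 genes at that level. All 7 members had at least 30 UMIs in sum. On that looser floor 6 were at least 2-fold lower, against 6.65% of 14803 genes. The members were picked on this contrast, so the counts restate the choice and nothing is read from them. The members' levels nearest the 2-fold mark were Mndal and Ifi207 inside it, at -1.38 and -1.26 with the added 0.1 CPM, and Aim2 outside it at -0.37.

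**Figure D1:**
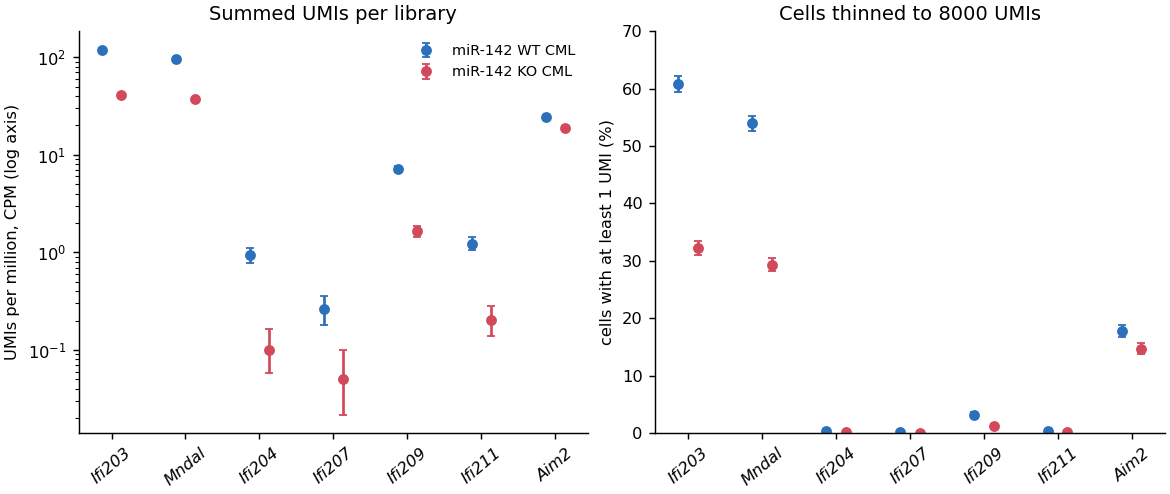
Levels of the 7 members in miR-142 WT CML (blue) and miR-142 KO CML (red), as CPM on a log axis (left) and as the percent of cells in which it was seen once all cells were thinned to 8000 UMIs (right). Bars are 95% counting intervals, with 1 library per group. The KO point lies below the WT point for every member on the left, with the smallest gap for Aim2.

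To take out the difference in depth, each cell was thinned at random to 8000 UMIs. The share of cells in which a member was seen was then lower in KO for all 7. Ifi203 had a UMI in 60.8% of WT cells (59.5% to 62.1%) and in 32.2% of KO cells (31.0% to 33.4%). Mndal was seen in 54.0% and 29.3%, Aim2 in 17.7% and 14.7%, and Ifi209 in 3.11% and 1.21%. Any of the 7 was seen in 82.8% of WT and 55.0% of KO cells. Without thinning the Ifi203 shares were 84.4% and 56.3%. No cell group in this sort was taken to lack Ifi203. The lowest shares were 12.1% (8.66% to 16.3%) in mast/basophil-like KO cells and 13.9% (4.67% to 29.5%) in plasma cell-like WT cells, with medians of 16397 and 27954 UMIs before thinning. Free RNA was estimated at 2.25% of the UMIs of WT cells and 1.48% of those of KO cells.

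Ifi203 and Mndal were often seen in the same cells. In WT, Mndal had a UMI in 59.9% of the cells with Ifi203 and in 44.8% of those without it, and in KO the shares were 43.5% and 22.6%. For Aim2 the same shares were 18.2% and 16.8% in WT, and 16.1% and 14% in KO, with overlapping intervals in both libraries. The part of the cell groups described next in these gaps was not tested.

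The members split into patterns across cell groups. Cells were gated by how many markers of a list they held after thinning, and a group carries the name of its list with "-like". Between 4 and 8 markers of each list were raised in the groups named below. For the HSC-like list, 5 of 9 markers were raised in WT and 4 of 9 in KO. Many HSC-like cells lay just inside the gate, 335 of 548 in WT and 81 of 104 in KO. HSC-like cells were not among the groups compared with a stricter gate, so their place in the order was not checked with it. In WT, Ifi203 was highest in HSC-like cells, marked by genes such as Procr and Mecom, at 195 CPM (186 to 205, 548 cells). Lymphoid-primed-like cells, marked by Flt3 and Dntt, followed at 173 CPM (167 to 179, 943 cells). Cells that passed no gate and cells that passed several were both at 146 CPM. Erythroid-like (113 CPM), monocyte-like (108 CPM) and megakaryocyte-like cells (106 CPM) came next, and their intervals overlapped.

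Well below stood the cells rich in transcripts of granule proteases such as Elane and Prtn3. Ifi203 was at 51.6 CPM in granule-high cells that also carried monocyte markers and at 44.9 CPM in the other granule-high cells. Mast/basophil-like cells had 31.1 CPM and plasma cell-like cells 20.7 CPM (13.1 to 31.0, 36 cells). The intervals of these groups lay far below those of the HSC-like and lymphoid-primed-like cells.

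KO cells kept much of this order at lower levels. Ifi203 was at 125 CPM in HSC-like cells (107 to 146, 104 cells), 118 CPM in lymphoid-primed-like cells (568 cells) and 89.5 CPM in ungated cells. It was at 72.3 CPM in erythroid-like, 60.4 CPM in mixed and 45.4 CPM in megakaryocyte-like cells. The granule-high groups had 25.5 CPM with and 18.3 CPM without monocyte markers, and mast/basophil-like cells had 17.8 CPM. The first 2 groups could not be told apart by their intervals, nor could the last 2.

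Mndal followed Ifi203 closely. Over the 20 library by group sums with at least 50 cells, the correlation of their log2(CPM + 1) levels was 0.98 (Pearson's r, given as a description, since the points share libraries and depth). In WT, Mndal ran from 135 CPM in HSC-like and 127 CPM in lymphoid-primed-like cells to 59.1 CPM in granule-high and 31.1 CPM in mast/basophil-like cells. In KO the same groups had 85.5, 84.0, 22.5 and 18.6 CPM.

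**Figure D2:**
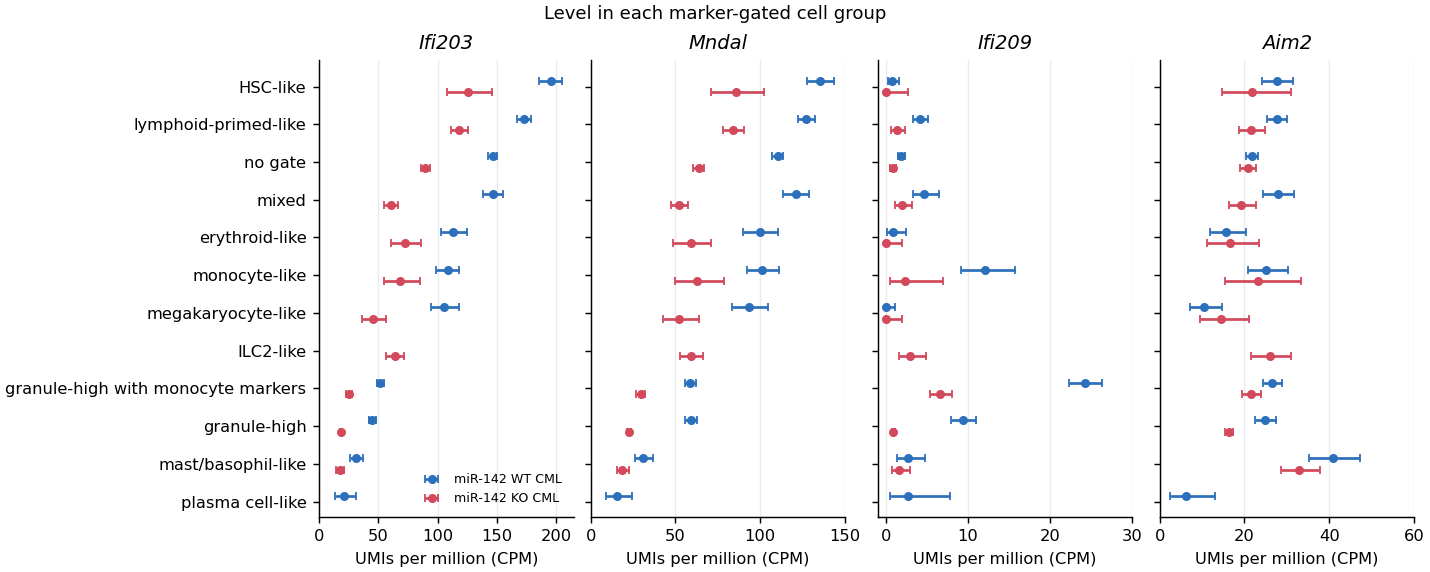
Level (CPM) of Ifi203, Mndal, Ifi209 and Aim2 in each marker-gated cell group of miR-142 WT CML (blue) and miR-142 KO CML (red), with 95% counting intervals and groups of under 30 cells left out. Ifi203 and Mndal fall from HSC-like to mast/basophil-like cells in both libraries, Ifi209 peaks in granule-high cells with monocyte markers in WT, and Aim2 peaks in mast/basophil-like cells.

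Ifi209 had a different distribution, with its WT peak in cells that carried both granule and monocyte markers. There it stood at 24.3 CPM in WT (22.3 to 26.4, 545 UMIs in 358 cells) against 6.64 in KO (5.44 to 8.03, 107 UMIs in 362 cells). Monocyte-like WT cells had 12.1 CPM and granule-high WT cells 9.37 CPM, against 0.937 CPM in the granule-high cells of KO. With a stricter gate, Ifi209 was at 28.3 CPM in monocyte-like and 30.5 CPM in granule-high cells with monocyte markers of WT. In KO it was then higher in monocyte-like cells, at 15.8 against 9.27 CPM (33 UMIs in each). In HSC-like cells it was nearly absent, with 6 UMIs in WT and 0 in KO, where a count of 0 allows up to 2.17 CPM. Megakaryocyte-like cells had 0 UMIs in both libraries.

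The UMIs of the scarce members were also held by few cells. In WT, 119 cells carried 3 or more UMIs of Ifi209 and held 59.7% of its total, and 79 of them were granule-high cells with monocyte markers and 21 other granule-high cells. In KO only 15 cells carried 3 or more, of which 11 were granule-high with monocyte markers. For Ifi204, 10 WT cells held 43.1% of its 130 UMIs, with up to 14 in 1 cell, while in KO its 16 UMIs lay in 16 cells. Ifi207 was similar, with 63.9% of its 36 WT UMIs in 10 cells. These counts were taken without thinning, and a scarce gene is seen in few cells by sampling alone. Whether these genes mark particular cells was not tested. The sum over a library can depend on how many cells with several UMIs were caught.

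Ifi211 and Ifi204 were highest among the myeloid groups of WT. Ifi204 was at 4.19 CPM in monocyte-like cells (19 UMIs) and 2.20 CPM in granule-high cells (36 UMIs), against 0.071 CPM in granule-high KO cells (6 UMIs). Ifi211 was at 3.97 CPM in monocyte-like and 3.21 CPM in granule-high cells with monocyte markers of WT, against 0.683 CPM in the latter group of KO. The highest Ifi211 level of all was in the 36 plasma cell-like cells, at 21.5 CPM from 24 UMIs. Such cells were gated in WT only, 36 against 0, and the plasma marker list summed to 3912 CPM in WT and 2.29 CPM in KO.

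Aim2 was the flattest of the members. Its WT levels lay between 21.7 and 27.8 CPM in HSC-like, lymphoid-primed-like, monocyte-like, both granule-high, mixed and ungated cells. Mast/basophil-like cells stood above these in both libraries, with 40.8 CPM in WT (35.1 to 47.2) against 32.9 in KO (28.6 to 37.7). In WT, megakaryocyte-like cells (10.5 CPM) and erythroid-like cells (15.7 CPM) were lowest among groups of at least 50 cells. Those 2 groups were at 14.4 and 16.5 CPM in KO. The profile of Aim2 across groups was nearly unrelated to that of Ifi203 (r = -0.09 over the 20 sums).

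Within each group, the members could be compared between libraries without the change in the shares of the groups. Makeup inside a group may still differ, as in the mixed and ungated cells, which no single gate defined. With a stricter gate the log2 ratio of the sum went from -0.68 to -0.87 in ungated cells. In granule-high cells it went from -1.30 to -1.21. Of the cells, 37.2% were granule-high without monocyte markers in KO against 5.37% in WT, while HSC-like cells made up 1.90% in KO and 10.2% in WT. These shares bear directly on the library totals, since granule-high cells carried little Ifi203. In the 9 groups with at least 50 cells in both libraries, Ifi203 and Mndal were lower in KO in 9 of 9, with intervals below 0 in each. With a stricter gate the interval of Ifi203 in mast/basophil-like cells reached past 0 (-0.38, -0.83 to 0.06). Of the 7483 genes with a mean of 10 CPM, 11.3% were lower in KO in all 9 groups. The group levels belong to the values on which the genes were chosen, so this share is given for scale only. Taken one group at a time, the share of genes lower in KO by any amount was 54.7% in HSC-like, 59.5% in lymphoid-primed-like, 56.6% in megakaryocyte-like, 55.1% in erythroid-like, 48.9% in mast/basophil-like, 61.1% in mixed and 59.9% in ungated cells. It was 62.7% in granule-high cells and 57.9% in those with monocyte markers.

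The size of the gap varied. For Ifi203 the log2 ratio was smallest in lymphoid-primed-like cells at -0.55 (-0.65 to -0.45) and in HSC-like cells at -0.64 (-0.87 to -0.41). It was largest in granule-high cells at -1.30 (-1.42 to -1.17). Mixed cells (-1.28) and megakaryocyte-like cells (-1.22) were close to the latter. Mndal ranged from -0.60 in lymphoid-primed-like to -1.39 in granule-high cells. No group reached the library-wide ratio of Ifi203, -1.52.

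Ifi209, Ifi211 and Ifi204 had their most negative ratios in granule-high cells. There, Ifi209 had a log2 ratio of -3.32 (-3.73 to -2.92, 153 and 79 UMIs), Ifi211 one of -3.83 (-4.75 to -2.97, 44 and 16 UMIs) and Ifi204 one of -4.95 (-6.49 to -3.69, 36 and 6 UMIs). In the granule-high cells with monocyte markers the ratios were smaller, at -1.87, -2.23 and -1.59. In lymphoid-primed-like cells Ifi204 was counted 17 times in WT and 0 times in KO, which makes it at least 2.54-fold lower there against a floor of 3 counts in the KO group. Ifi207 was counted once in granule-high WT cells and not in those of KO, but in granule-high cells with monocyte markers it had 12 UMIs in WT and 0 in KO, at least 2.87-fold lower by the same floor. It pointed the other way in mast/basophil-like cells, with 1 UMI in WT and 5 in KO, but those 5 UMIs lay in 1 cell.

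Aim2 was lower in KO in 7 of the 9 groups, with intervals below 0 in 5. The ratio was -0.61 (-0.77 to -0.44) in granule-high cells and -0.06 (-0.22 to 0.10) in ungated cells. Megakaryocyte-like cells at 0.46 (-0.33 to 1.24) and erythroid-like cells at 0.07 (-0.61 to 0.73) pointed the other way, with intervals on both sides of 0.

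Giving both libraries the same weights for the 9 groups ended the 2-fold difference of Ifi203 and Mndal. Ifi203 then stood at 117 CPM (WT) and 68.6 CPM (KO), and its log2 ratio was -0.77 in place of -1.52, and Mndal at 95.7 and 53.1 CPM, -0.85 in place of -1.38. Neither was 2-fold lower on this scale, on which 0.454% of genes were. Ifi209 had a ratio of -2.03 and Aim2 one of -0.30. Of the rarest genes, Ifi207 moved toward 0, from -2.37 to -1.65, while Ifi204 and Ifi211 moved away from it, to -3.52 and -3.11. For the 7 genes in sum the ratio was -0.77, against -1.32 without the weights.

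**Figure D3:**
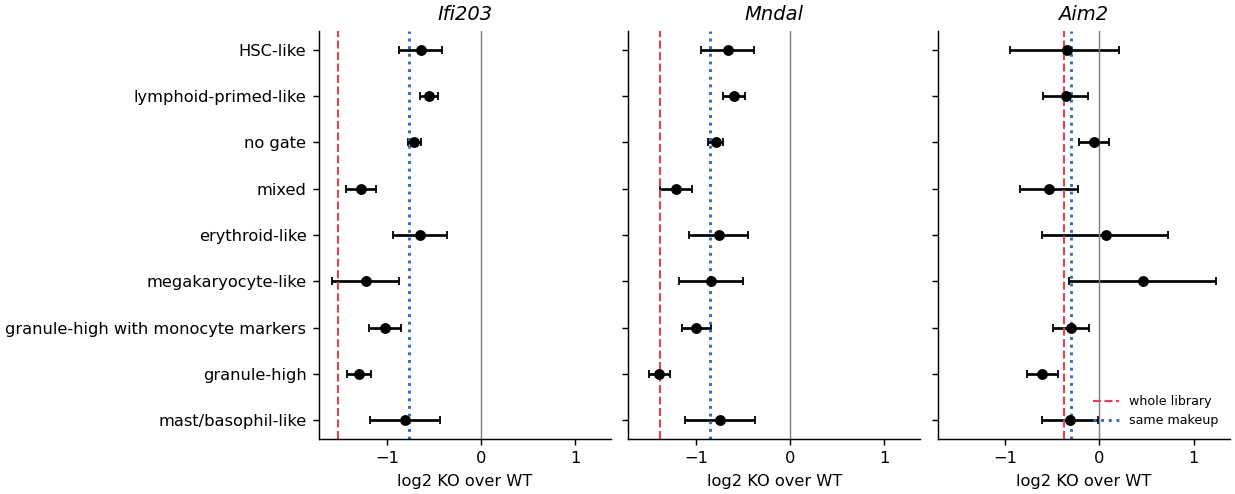
Log2 ratio of KO over WT for Ifi203, Mndal and Aim2 within the 9 cell groups that held at least 50 cells in both libraries, with 95% counting intervals. The red dashed line is the ratio over the whole library and the blue dotted line the ratio with the same group makeup. All Ifi203 and Mndal points lie left of 0, mostly nearer the dotted than the dashed line.

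Depth per cell and cell cycle moved with the members' levels too. Among cells with 8000 to 16000 UMIs the 7 genes summed to 343 CPM in WT against 210 in KO (log2 ratio -0.71), and among those with 32000 or more to 189 and 62.7 CPM (-1.59). The granule-high cells were among the deepest, with medians of 55923 UMIs in WT and 40451 in KO, against 12387 and 10722 in HSC-like cells, so depth and cell group cannot be told apart here. Scarce members went the other way in WT. From the shallow to the deep class, Ifi209 rose from 2.53 to 11.8 CPM, Ifi211 from 0.208 to 2.12 and Ifi204 from 0.623 to 1.31. In KO, Ifi209 was at 2.03 and 1.80 CPM. In the shallow class Aim2 was at 25.8 CPM in both libraries, and Ifi209 had an interval across 0 (-0.94 to 0.28). Ifi203 was at 147 CPM in WT cells with few S and G2M phase transcripts and at 106 CPM in the others, and at 55.0 and 33.8 CPM in KO. The gap between libraries was thus present on both sides of the cell cycle split.

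Markers of other cell types were few. Summed over 7 genes each, the macrophage list was at 18.3 and 20.5 CPM and the B lymphocyte list at 41.3 and 35.9 CPM in WT and KO, and the dendritic cell list, which includes MHC class II genes, was at 64.8 and 33.0 CPM. Of their markers, between 0 and 2 were at 0 in each library. The T and NK list was at 210 and 307 CPM, and 184 ILC2-like cells, marked by Il7r, Icos and Calca, were gated in KO against 6 in WT. In those KO cells Ifi203 was at 63.7 CPM and Mndal at 59.1 CPM. Cells with 3 or more dendritic markers carried the members at 302 CPM in WT (21 cells) and 462 CPM in KO (10 cells). The part of these cells in the library ratios was not tested.

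Other interferon-inducible genes were lower in KO as well, though not all of them. A list of 49 classical interferon response genes was set beside the members, of which 46 were in the files. Of the 23 with a mean of 10 CPM, 7 were at least 2-fold lower and 0 at least 2-fold higher, against 1.16% and 0.989% of all genes at that level, and 22 were lower by any amount, against 61.9%. The median log2 ratio was -0.64, beside -0.08 for all genes, and -0.39 with the same cell group makeup, beside -0.06.

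The interferon response list split by gene. Ifi27, a small mitochondrial membrane protein gene, had 98.3 CPM in WT against 39.9 in KO (log2 ratio -1.30). Ifi27l2a (24.6 and 2.92 CPM, -3.03), Rtp4 (19.3 and 2.84 CPM, -2.72) and the antiviral gene Trim30a (30.6 and 9.13 CPM, -1.73), named here after their values were seen, showed larger gaps. The 3 most abundant genes of the list moved little. Ifitm3, an inhibitor of virus entry, was at 931 and 901 CPM, the immunoproteasome subunit Psmb8 at 671 CPM in both, and the virus tether Bst2 at 186 and 177 CPM. Ifi203 and Mndal were past 2-fold too and Aim2 was not, but the members were chosen on this contrast, so no likeness is read from it. At equal cell group makeup Ifi203 (-0.77), Mndal (-0.85) and Ifi27 (-0.80) were short of 2-fold. Ifi27l2a (-2.41), Rtp4 (-1.83) and Trim30a (-1.32) stayed past it.

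**Figure D4:**
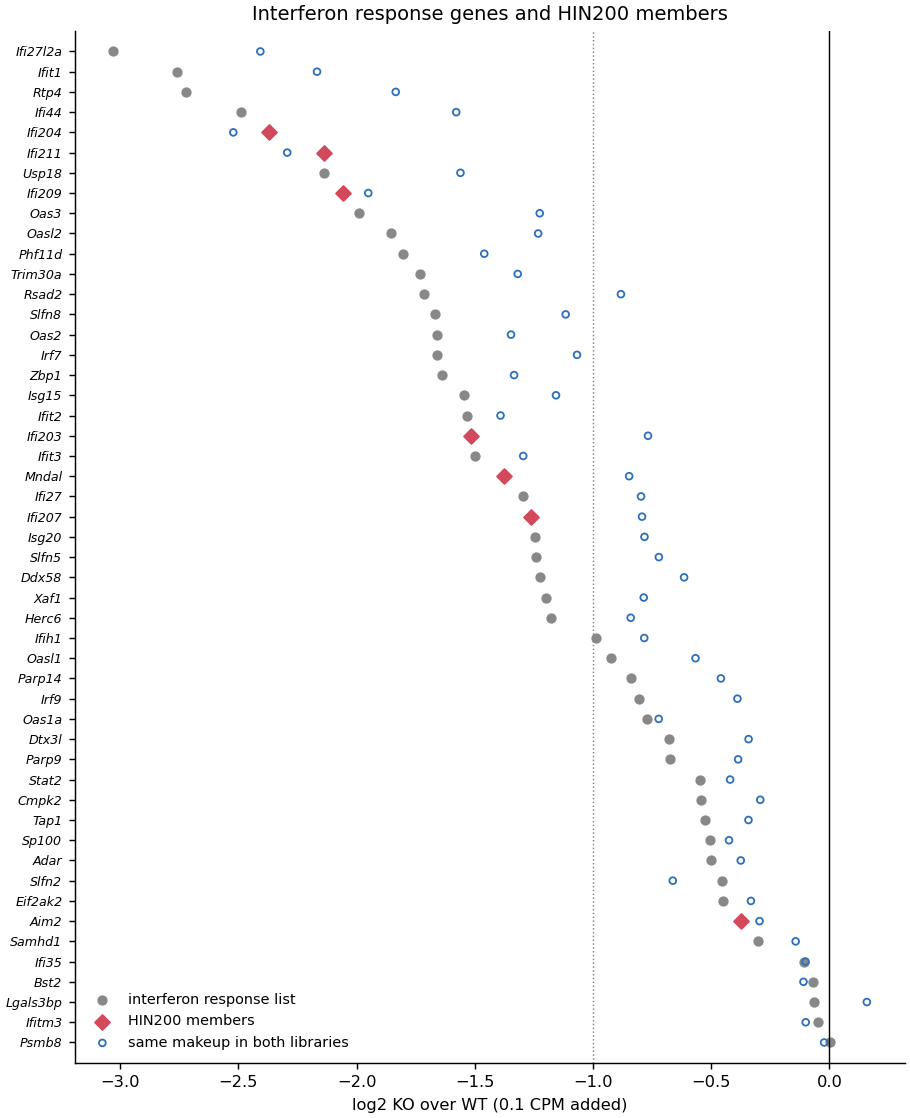
Log2 ratio of KO over WT (0.1 CPM added) for the interferon response genes (grey) and the HIN200 members (red) with at least 30 UMIs in sum (not every gene of the list drawn), sorted by size, with the same ratio at equal cell group makeup as blue circles. The dotted line marks 2-fold lower. Ratios run from -3.03 (Ifi27l2a) to about 0 (Psmb8), with Ifi203 at -1.52, Mndal at -1.38 and Aim2 at -0.37.

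Cells were also split by their own UMIs of the 40 genes of the interferon list under 50 CPM in WT. In WT, 59.7% of cells had 4 or more such UMIs after thinning, and in KO 29.1%. Ifi203 rose along this split in both libraries, from 66.7 CPM in WT cells with 0 to 1 such UMI through 91.6 CPM with 2 to 3 to 155 CPM with 4 or more, and from 27.0 through 37.9 to 74.0 CPM in KO. Aim2 changed little along it, from 24.4 to 25.3 CPM in WT and from 16.9 to 22.1 CPM in KO. Ifi209 fell in WT, from 9.34 CPM (8.17 to 10.6) to 6.32 (5.74 to 6.95), and went from 1.57 to 2.13 CPM in KO. The part of the cell groups in this split was not tested. Within each class the members stayed lower in KO, with log2 ratios of the sum of -1.17, -1.12 and -0.98.

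Genes of DNA sensing and interferon signalling were closer to even. Of the 15 of 23 listed genes with a mean of 10 CPM, 1 was at least 2-fold lower in KO and 12 were lower by any amount. Of all genes at that level, 1.16% and 61.9% were. The median log2 ratio of the list was -0.25, beside -0.08 for all genes. The listed gene past 2-fold was Irf8, a transcription factor of the monocyte and dendritic cell lines. Irf8 had 77.7 CPM in WT against 38.2 in KO and also served as a monocyte marker in the gates. At equal cell group makeup its log2 ratio was -0.73 in place of -1.02, short of 2-fold. On the floor of 30 UMIs, 3 of 19 listed genes were at least 2-fold lower, against 6.65% of all genes. Beside Irf8 these were the nucleic acid sensor gene Zbp1 (869 and 309 UMIs) and the interferon regulator Irf7 (1244 and 441 UMIs). Both are also in the interferon response list and were named after their values were seen. At equal makeup Zbp1 (-1.33) and Irf7 (-1.07) stayed past 2-fold. The interferon receptor genes did not share this direction. Ifngr1 was at 110 and 191 CPM, and Ifnar2 at 112 and 138 CPM, both higher in KO. The kinase gene Jak1 was at 85 and 66.7 CPM.

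The more abundant partners of Aim2 in the inflammasome differed little between libraries, while some scarcer genes of the list were lower in KO. Pycard had 202 CPM in WT against 227 in KO, and Casp1 at 47.1 and 44.6 CPM. Casp8 (90.6 and 74.8 CPM) and Txnip (115 and 87.3 CPM) had log2 ratios of -0.28 and -0.39. Of the 12 listed genes, 6 had a mean of 10 CPM, with a median log2 ratio of -0.17. Of these 6, 0 were past 2-fold in either direction, against 1.16% lower and 0.989% higher among all genes at that level. On the floor of 30 UMIs, 3 of 12 were at least 2-fold lower and 0 higher, against 6.65% and 2.29% of all genes. The 3 were the cytokine genes Il18 (1194 and 383 UMIs, log2 ratio -1.80) and Il1b (674 and 261 UMIs, -1.51) and the sensor gene Nlrp3 (87 and 32 UMIs, -1.27), named after their values were seen. At equal makeup Il18 was at -0.86, short of 2-fold, while Il1b (-1.59) and Nlrp3 (-1.48) stayed past it.

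The remaining family genes were hardly expressed. Ifi206 had 105 UMIs in WT and 21 in KO, Ifi213 60 and 2, Ifi214 28 and 6, and Ifi208 7 and 2. Ifi205 had 2 and 1, and Ifi202b had 0 in both libraries. Those with 30 or more UMIs in sum, 3 genes, were all lower in KO, as were 66.9% of all genes on that floor. All 3 were at least 2-fold lower, against 6.65% of all genes, on few UMIs in KO.

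Over the same 20 library by group sums, the genes outside the cluster whose levels followed the summed members most closely included Slc25a45 (r = 0.94), Asxl1 (0.93), Tbl1x (0.92), Dzip3 (0.91), Arhgap17 (0.91), Rnf220 (0.91) and Sox4 (0.91), out of 7480 candidates. None of these 7 is in the interferon response list. Within WT alone the correlations of these 7 genes lay between 0.90 and 0.98, and within KO between 0.84 and 0.96. Sox4, a transcription factor of early progenitors, had 200 CPM in WT against 95.1 in KO, and the chromatin regulator Asxl1 at 29.2 and 22.2 CPM. The points share libraries, depth and cell groups, so these values describe the order of the groups only.

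The better expressed genes next to the cluster were not 2-fold lower, and scarce ones differed in both directions. Within 1 Mb on either side, 4 genes outside the family had a mean of 10 CPM. Fcer1a, which encodes a subunit of the IgE receptor of mast cells and basophils, was higher in KO, with 73.5 CPM in WT against 112. Mast/basophil-like cells made up 3.67% of WT and 5.61% of KO cells. Tagln2 was at 719 and 854 CPM, Dusp23 at 20.2 and 21.7 CPM and Pigm at 11.8 and 11.6 CPM. Cadm3, which overlaps Aim2 on the opposite strand, had 92 UMIs in WT and 359 in KO, the reverse of the Aim2 difference, and Ackr1 beside it had 89 and 251. Lower in KO were Fmn2 (45 and 5 UMIs) and the olfactory receptor gene Olfr417 (159 and 74 UMIs, log2 ratio -1.14, and -0.11 at equal makeup). At equal makeup Fmn2 (-1.46), Cadm3 (1.45) and Ackr1 (1.31) stayed past 2-fold. These 4 scarce genes, named after their values were seen, were the ones past 2-fold among the 13 genes outside the family with 30 UMIs in sum, 2 lower and 2 higher, against 6.65% and 2.29% of all genes on that floor. Of the 13, 8 were lower by any amount, Igsf9 among them (85 and 45 UMIs). Over 5 Mb on either side, the 44 other genes with a mean of 10 CPM had a median log2 ratio of -0.16. Of these, 31 were lower by any amount, against 61.9% of all genes at that level. At least 2-fold lower was 1 gene, and at least 2-fold higher 1, the Fc receptor gene Fcgr3, against 1.16% and 0.989% of all genes.

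**Figure D5:**
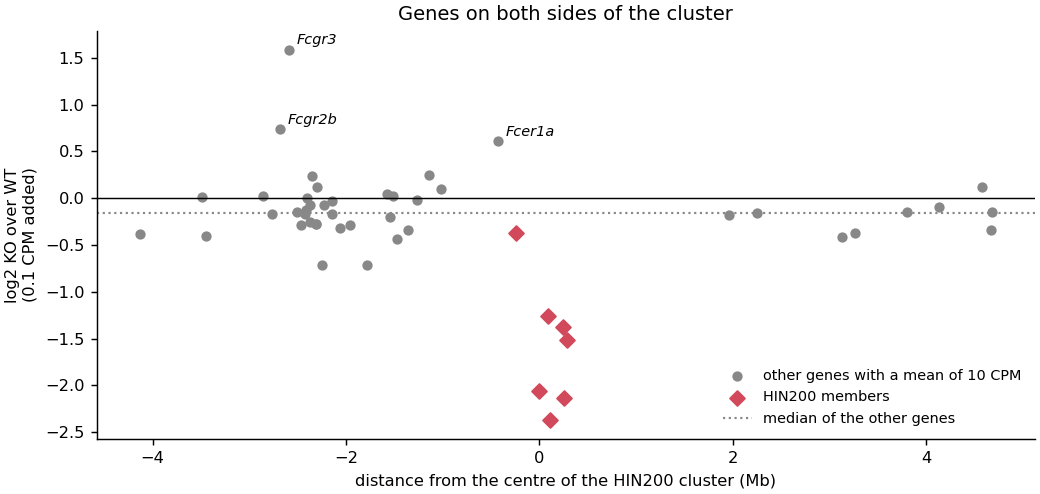
Log2 ratio of KO over WT (0.1 CPM added) against the distance from the centre of the HIN200 cluster for the 7 members (red diamonds) and other genes with a mean of 10 CPM within 5 Mb (grey, not every gene drawn). The members other than Aim2 lie between -1.26 and -2.37, and the median over all 44 neighbours is -0.16 (dotted line).

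A difference in the strain origin of chromosome 1 between the libraries would also change counts of these variable genes. Both libraries were described as B6, the files hold no base calls, and strain and genotype cannot be told apart with 1 library per group.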

How the data were processed

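LSK cells of both CML genotypes, miR-142 WT and miR-142 KO, were profiled as 1 library each with the 10x Genomics 3′ v3.1 kit. The deposited files hold UMI counts per gene and barcode, which the authors made with Cell Ranger (6.1.2 in the submitters' processing notes, version 4 in the file headers) on mm10, with no filter on barcodes. Barcodes with at least 8000 UMIs and under 10% mitochondrial UMIs were kept. Counts were summed by library and cell group and given as CPM. Levels have exact Poisson, shares exact Clopper-Pearson and log2 ratios exact conditional binomial 95% intervals (scipy 1.17.1), which cover counting error only. Cells were thinned to 8000 UMIs and gated on 3 or 4 markers of a list, and granule-high cells also on 50 UMIs of it. Plasma, mast/basophil and ILC2 gates were read first. A cell past several other gates was called mixed. Doublets were left in. List ratios had 0.1 CPM added and a floor of a mean of 10 CPM, or of 30 summed UMIs, and called genes differed 2-fold.

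The members, gene lists and gates were chosen with earlier results of these data known, and the gate thresholds after the marker distributions were seen. All members were named. From each list, genes past 2-fold with 50 CPM in either library and up to 4 with the most UMIs were named, together with the 8 genes most alike in pattern and all neighbours within 1 Mb at 10 CPM. Annotation came from GENCODE (GRCm38). The methods were tested on simulated data. Some genes that these rules name are not reported here.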

Additional observations from a re-analysis of the deposited data

Results flagged for a closer look

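Aim2 differed in direction between cell groups. Over the whole library it was lower in miR-142 KO CML, but its log2 ratio was 0.46 in megakaryocyte-like cells (33 UMIs in WT and 27 in KO) and 0.068 in erythroid-like cells (56 and 31 UMIs). Both intervals included 0, and the difference between groups was not tested.

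The members were also seen in barcodes left out of the comparisons for low depth. Between 300 and 8000 UMIs, the 7 genes summed to 298 CPM in WT (284 to 312, 3162 barcodes) and 230 CPM in KO (218 to 242, 1641 barcodes). Ifi209 was higher in KO there, at 5.08 CPM in WT (30 UMIs) against 7.64 in KO (49 UMIs), and Aim2 was at 30.1 and 31.4 CPM. What these barcodes hold was not tested.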

How the results depend on the processing

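Each of the 7 members stayed lower in KO over the library under all 8 alternatives. The log2 ratio of the sum, -1.32, was -1.26 with all barcodes over 300 UMIs, -1.44 with a cutoff of 16000 UMIs, -1.25 with median-of-ratios size factors (which moved the median of all genes by -0.08), -1.12 as a mean over cells, -0.77 with the same weights over cell groups and, chosen after seeing the data, -1.005 with the same weights over depth classes. It moved least when the cells with the highest doublet scores were left out (-1.32) and when free RNA was subtracted (-1.33). Of the interferon response genes, 7 were at least 2-fold lower, against 3 with the cutoff of 16000 UMIs, 4 with the same group weights, 23 with no filter on low values and 1 with a mean of 50 CPM. The gap in the share of cells with Ifi203 was -28.6 percentage points, and -7.75 when cells were thinned to 1000 UMIs. The median log2 ratio of the sum over cell groups, -0.68, was -0.87 over the 7 groups of a stricter gate. Those groups included monocyte-like cells but lacked HSC-like, erythroid-like and mixed cells, so the medians cover different groups. The weighted ratio, -0.77, was -0.71 with the makeup of WT as weights. The cause of these shifts was not tested. No paired analysis was possible because each group had 1 library, which also allowed no replicate to be left out. Ifi204, Ifi207 and Ifi211 were limited by depth, with 8 to 32 UMIs in KO.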
